A study of Mus musculus with 6 samples.

Results

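Kinesins are motor proteins that burn ATP to walk along microtubules or to take them apart. Some build the mitotic spindle, move chromosomes and split the cell at the end of division. Others carry membranes and organelles through the cytoplasm, or work in cilia and in the sperm tail, which germ cells assemble after meiosis. The kinesin motor family was taken here as every gene symbol that starts with Kif and a digit in all 6 count files, which gave 37 of 21786 symbols. By known role, 13 were grouped as mitotic, 12 as transport, 9 as ciliary and 3 as other. Kif12, a kinesin known from epithelial tubules, had 0 reads in all 6 libraries, so 36 members could be tested.

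The libraries hold polyadenylated RNA of whole mouse testes. There were 3 from Stra8 -/- males aged 1 year, whose testes were grossly enlarged, and 3 from Stra8 +/+ males aged 2 to 4 months with normal testes, all on a C57BL/6 background. Stra8 is a retinoic-acid-induced factor needed for meiosis. By the labels, cells resembling type A spermatogonia fill most of the enlarged testes. Age and testis enlargement follow genotype and cannot be told apart from it. The sources used here give no more on the allele than the genotype. Levels are CPM, read counts scaled by library size with TMM factors. Each log2 fold change sets Stra8-deficient over wild-type testes and carries an approximate SE (standard error).

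Stra8-deficient libraries held 7883466 to 12425689 reads in genes, and wild-type libraries 6733128 to 8937224. Testis cell types were checked by their markers, as summed CPM. The 8 spermatid markers held 3.05 to 11.6 CPM in Stra8-deficient and 22457 to 25911 CPM in wild-type testes, and 8 spermatogonial markers held 2657 to 4237 against 98.1 to 122 CPM. Of 8 markers of pachytene spermatocytes 7 were lower, with 203.0 to 242 against 10073 to 10844 CPM. Somatic markers varied among the Stra8-deficient testes. The 6 Leydig cell markers held 18.4 to 2676 CPM there and 747 to 1228 CPM in wild type, and the 7 Sertoli cell markers 88.3 to 669 against 1571 to 1756 CPM. Of the Sertoli cell markers 6 were lower and Wt1 was not called, and Clu alone held 31.1 to 586 CPM in Stra8-deficient testes. The 5 endothelial markers held 86.3 to 228 against 57.5 to 66.8 CPM and the 4 of peritubular myoid cells 44.3 to 245 against 127 to 133 CPM. Of the endothelial markers 3 were higher and 2 not called. Vwf among them held 36.0 to 182 CPM in Stra8-deficient testes, which overlaps its 36.8 to 41.3 CPM in wild type. The 6 markers of neurons and glia held 18.6 to 21.1 against 33.4 to 36.7 CPM. The 6 macrophage markers held 353 to 1051 CPM against 23.2 to 32.5 CPM, and Mmp12 among them was the 1 marker of any list at 0 in every library of a genotype, wild type. In such bulk RNA, fewer cells of a type and less RNA per cell cannot be told apart.

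In Stra8-deficient testes the mitotic kinesins were mostly higher, the ciliary kinesins were mostly lower, and the transport kinesins were split. Of 36 tested members 14 rose, 18 fell and 4 were not called (adjusted p under 0.05 by edgeR's quasi-likelihood test, with Benjamini-Hochberg adjustment over all genes). The share of members called, 32 of 36, stands beside 75.8% of the 15018 genes tested. Among all genes 39.0% were higher and 36.7% lower. Of the 13 mitotic kinesins 8 rose, 4 fell and 1 was not called, with a median log2 fold change of 0.71; with the reads of a retrocopy added to Kif4, 7 mitotic members and 13 of the family rose. Of the 12 transport kinesins 4 rose, 7 fell and 1 was not called, at a median of -0.63. Of the 9 ciliary kinesins 0 rose, 7 fell and 2 were not called, at a median of -2.51. The median of all genes tested was 0.11. A fall of at least 4-fold was called in 6 of the 9 ciliary members, 3 of 12 transport and 2 of 13 mitotic members, beside 22.2% of all genes, and a rise of that size in 4 members, beside 17.4%. In either direction that made 15 members, beside 39.6% of all genes. The genotypes did not overlap in 32 members, beside 80.2% of all genes. The medians of the mitotic, transport and ciliary classes kept their signs under every scaling tried. That of the transport class came to -0.01 with library size alone, where the median of all genes was 0.73.

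**Figure D1:**
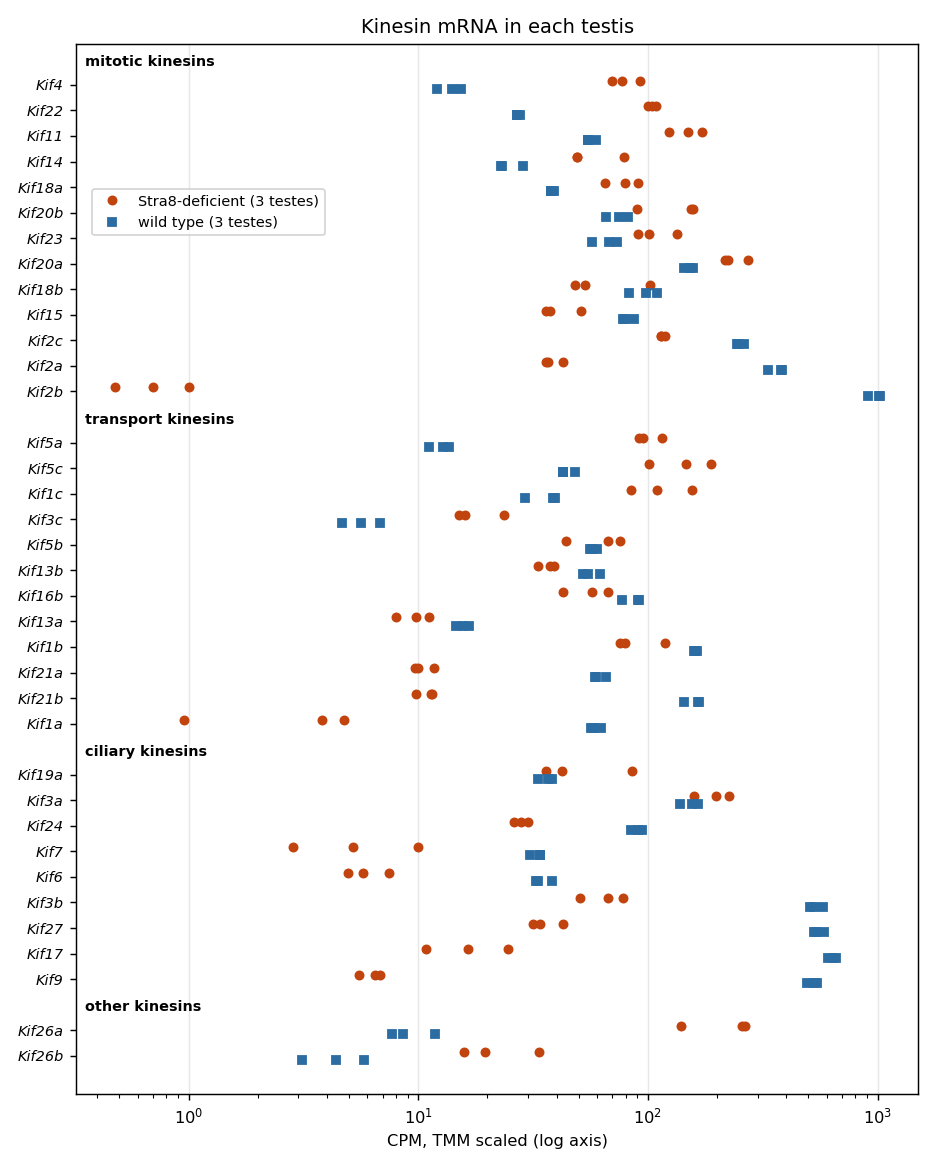
CPM of each of the 36 read kinesins on a log axis, with Stra8-deficient testes as circles and wild-type testes as squares, 3 of each, ordered within a class by log2 fold change. Kif2b, Kif9 and Kif17 show the widest gaps, and the genotypes overlap in Kif18b, Kif5b, Kif3a and Kif19a.

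Kif11, a plus-end motor that pushes spindle poles apart, had 124, 150 and 172 CPM in Stra8-deficient testes and 59.6, 55.1 and 55.0 CPM in wild-type testes. All 3 Stra8-deficient testes lay above the wild-type ones, and the log2 fold change was 1.39 ± 0.18 (SE; adjusted p = 8.74e-05). Kif15, which can share the work of Kif11 in the spindle, moved the other way, to 41.4 ± 8.28 CPM in Stra8-deficient against 81.5 ± 4.93 CPM in wild-type testes (SD, n = 3 each), a log2 fold change of -0.98 ± 0.19 (adjusted p = 0.00130). The number of Kif11 reads per Kif15 read, which no scaling touches, was 3.45, 2.94 and 4.59 in Stra8-deficient and 0.766, 0.632 and 0.693 in wild-type libraries. These ratios did not overlap, which follows from Kif11 lying above and Kif15 below wild type in every Stra8-deficient testis.

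Chromosome-binding kinesins gave the largest rises of the mitotic class. Kif22, which pushes chromosome arms away from the poles, had 108, 100.1 and 104 CPM in Stra8-deficient and 27.6, 27.0 and 27.0 CPM in wild-type testes (1.94 ± 0.16; adjusted p = 4.96e-06). Among members its spread between wild-type testes was the smallest, with a coefficient of variation of 1.42%. Kif4, a chromosome-arm motor that also acts in the central spindle, had 69.6, 92.3 and 77.1 CPM against 15.3, 14.0 and 12.1 CPM in wild type (2.53 ± 0.20; adjusted p = 4.29e-06). The rise of Kif4 depended on how reads were divided between it and an intronless retrocopy on chromosome 12. That copy is listed as Kif4b in 5 files and as Kif4-ps in the third Stra8-deficient file, which RefSeq gives as names of 1 gene, so it is outside the 37 members. The copy had 2, 4 and 7 reads in Stra8-deficient and 351, 303 and 265 reads in wild-type libraries. Kif4 therefore took 99.7%, 99.6% and 99.4% of the reads of the pair in Stra8-deficient and 21.8%, 24.6% and 19.9% in wild-type libraries. Summed, the pair had 69.8, 92.7 and 77.6 CPM in Stra8-deficient against 70.1, 56.8 and 60.7 CPM in wild-type testes, which overlap, and the log2 fold change was 0.36 ± 0.18 (adjusted p = 0.101). This sum was added after the values were seen. Reads of such near-identical copies are uncertain in both genes.

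Kif18a, which damps chromosome movement at the metaphase plate and whose loss in mice depletes germ cells, rose to 78.4 ± 12.9 CPM in Stra8-deficient against 38.2 ± 0.578 CPM in wild-type testes (SD, n = 3 each), a log2 fold change of 1.04 ± 0.18. Its paralog Kif18b, which works with Kif2c on astral microtubules, had 102, 48.1 and 53.4 CPM in Stra8-deficient and 82.6, 98.1 and 109.5 CPM in wild-type testes. The first Stra8-deficient testis lay among the wild-type ones and the other 2 below, and Kif18b was not called (-0.52 ± 0.29; adjusted p = 0.130). Without that first testis it was called lower (-0.96; adjusted p = 0.00150).

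The 4 kinesins of cytokinesis all rose. Kif20a, which brings the chromosome passenger complex to the central spindle, had 237 ± 31.2 CPM in Stra8-deficient and 151 ± 7.45 CPM in wild-type testes (0.65 ± 0.17; adjusted p = 0.00589). Kif23, the motor of the centralspindlin complex and also a component of the bridges that join germ cells, had 108 ± 22.5 against 66.1 ± 8.23 CPM (0.71 ± 0.20; adjusted p = 0.00965), and without the first wild-type library it was not called (0.60; adjusted p = 0.0613). Kif20b, known in mice for a role in the last cut between daughter cells of the developing brain, had 133 ± 38.1 against 74.1 ± 8.14 CPM (0.85 ± 0.24; adjusted p = 0.00928). Kif14, which binds the kinase Cit at the midbody, had 58.9 ± 16.8 against 24.9 ± 3.18 CPM (1.24 ± 0.24; adjusted p = 0.00120). In the annotation 29.3% of the exon bases of Kif20a are shared with Cdc23 on the opposite strand, and whether the counting used strand is not given.

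The 3 Kif2 genes, whose proteins do not walk but peel tubulin off microtubule ends, all fell, by very different amounts. Kif2b, in human cells a corrector of chromosome attachments, is a single-exon gene of 2.24 kb. It had 7, 5 and 15 reads in Stra8-deficient libraries and 6524, 7266 and 4939 reads in wild-type libraries, or 0.703, 0.476 and 1.00 against 1019, 1026 and 906 CPM. No other kinesin differed as much, with a log2 fold change of -10.33 ± 0.31 (adjusted p = 2.71e-08). Kif2a, which acts at spindle poles and also trims axon branches, had 36.7, 42.5 and 36.0 CPM in Stra8-deficient and 334, 383 and 378 CPM in wild-type testes (-3.25 ± 0.18; adjusted p = 3.49e-07). Of its exon bases 19.2% are shared with Dimt1 on the opposite strand. Kif2c, which frees wrongly attached centromeres, had 116 ± 2.61 CPM in Stra8-deficient and 251 ± 10.4 CPM in wild-type testes (SD, n = 3 each; -1.12 ± 0.15; adjusted p = 1.23e-04). Of the reads of the 3 genes, Kif2b took 0.474 ± 0.185% in Stra8-deficient and 61.4 ± 1.92% in wild-type libraries, and Kif2c 74.7 ± 1.16% against 15.7 ± 0.708% (SD, n = 3 each). The share of Kif2a overlapped between genotypes, at 24.8 ± 1.33% and 22.9 ± 2.05%. With 3 shares a genotype, p = 0.1 is the lowest that an exact two-sided permutation test can reach; Kif2b and Kif2c gave that value and Kif2a gave p = 0.3. Without Kif2a and Kif2b the mitotic class had 8 members higher and 2 lower among 11.

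**Figure D2:**
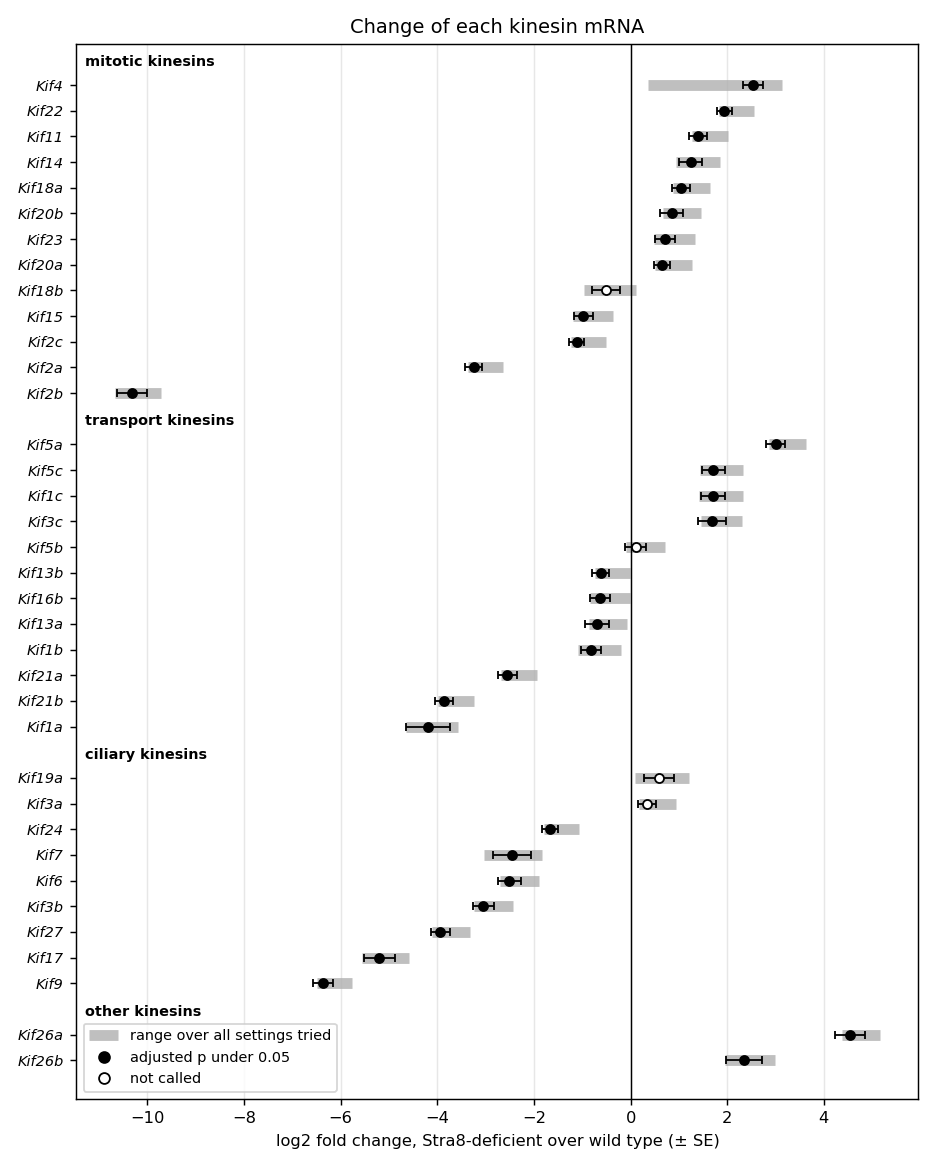
Log2 fold change, Stra8-deficient over wild type, of each tested kinesin with its SE. Filled circles were called at an adjusted p under 0.05, open circles were not, and grey bars span all settings tried. The bar of Kif4 reaches down to 0.36, the value with the reads of its retrocopy added.

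Promoters of the mitotic members were read for motifs known from cell cycle genes. RefSeq promoter windows of GRCm38.p6, 250 bases before to 50 after each start, matched 31 of the 37 members by symbol. The cell cycle homology region (CHR, TTTGAA or TTCGAA on either strand) was found in 9 of 12 mitotic members (75.0%), in 1 of 8 transport members and in 2 of 8 ciliary members, beside 21.7% of 27025 genes. A CHR, with or without a CCAAT box, stood in 6 of the 7 mitotic members that rose and in 2 of the 4 that fell, Kif15 and Kif2c. A CCAAT box on either strand, with or without a CHR, stood in 7 of 12 mitotic, 1 of 8 transport and 5 of 8 ciliary members. Among all genes 41.1% held this box. It stood in 5 of the 7 mitotic members that rose and in 1 of the 4 that fell. The plan named each motif and not the pair. A CHR together with a CCAAT box on either strand stood in 5 of the 7 mitotic members that rose and in 0 of the 4 that fell, beside 8.61% of all genes. It also stood in Kif18b, which was not called, and in Kif26b of the other class, which rose. Of 8 ciliary members 2 held it, Kif24 and Kif27, which both fell. These are matches of letters and not mapped binding sites. The windows of Kif4 (chrX:100625815-100626114, plus strand) and Kif11 (chr19:37376132-37376431, plus strand) are shown since both hold the 2 motifs close to the start. Capitals mark CHR and CCAAT matches on either strand, so that ATTGG is a CCAAT box and TTCAAA a CHR read from the other strand.
Kif4: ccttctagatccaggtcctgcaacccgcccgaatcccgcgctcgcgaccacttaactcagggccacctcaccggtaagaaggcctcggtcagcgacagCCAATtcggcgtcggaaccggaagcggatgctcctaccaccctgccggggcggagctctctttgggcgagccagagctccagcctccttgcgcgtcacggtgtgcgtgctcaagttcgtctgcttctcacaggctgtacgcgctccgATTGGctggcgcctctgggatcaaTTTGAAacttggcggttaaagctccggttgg
Kif11: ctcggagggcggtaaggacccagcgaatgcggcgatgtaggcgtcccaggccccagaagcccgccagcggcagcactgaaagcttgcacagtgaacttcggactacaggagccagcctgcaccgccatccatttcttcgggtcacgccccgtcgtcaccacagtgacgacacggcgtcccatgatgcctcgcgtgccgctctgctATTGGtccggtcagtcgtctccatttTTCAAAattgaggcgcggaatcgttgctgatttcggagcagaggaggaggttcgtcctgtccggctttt

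Of 15 listed partners of the mitotic kinesins 8 rose, 2 fell and 5 were not called, with a median of 0.45. Among all genes 75.8% were called, 39.0% higher and 36.7% lower. Aurkb, the kinase of the chromosome passenger complex that Kif20a carries, had 59.4 ± 16.6 CPM in Stra8-deficient and 17.6 ± 2.05 CPM in wild-type testes (1.75 ± 0.25). Anln, an actin-ring scaffold of cytokinesis, rose by 1.72 ± 0.18. Plk1, a kinase that recruits several mitotic motors, fell by 1.95 ± 0.24 (adjusted p = 6.68e-05). Cit, which Kif14 binds, was the other listed partner that fell (-0.98 ± 0.29, adjusted p = 0.0122). The 6 proliferation markers held 1275 to 1586 CPM in Stra8-deficient and 435 to 468 CPM in wild-type testes, with 4 higher and 2 not called. Their part in the rise of mitotic kinesins was not tested.

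Kif9, Kif17 and Kif27 had the largest falls among the ciliary kinesins. Kif9, a motor of the central pair of the sperm tail in mice, had 5.52, 6.48 and 6.83 CPM in Stra8-deficient and 495, 530 and 546 CPM in wild-type testes (-6.38 ± 0.21; adjusted p = 2.77e-08). Kif17, which works in cilia and dendrites and in mouse spermatids moves the coactivator of the transcription factor CREM, had 24.5, 10.8 and 16.5 CPM against 606, 656 and 641 CPM in wild type (-5.20 ± 0.32; adjusted p = 7.45e-07). Kif27, needed for motile cilia in mice, had 34.0, 42.5 and 31.6 CPM against 530, 586 and 541 CPM in wild type (-3.94 ± 0.20; adjusted p = 2.21e-07). All Stra8-deficient testes lay far below all wild-type testes for these 3 genes. Per kilobase of annotated exon, the wild-type order of levels was Kif2b (438 ± 30.0 CPM per kb), Kif17 (138 ± 5.65), Kif9 (122 ± 6.11), Kif27 (106 ± 5.71) and Kif3b (95.8 ± 6.48), with SD over 3 testes. Kif27 and Kif3b differed by less than the sum of their SDs. In Stra8-deficient testes the order began with Kif20a (54.7 ± 7.18 CPM per kb) and Kif3a (53.9 ± 9.31), which did not differ beyond their spread, followed by Kif26a (31.8 ± 10.1) and Kif2c (26.5 ± 0.599), whose spreads also overlap.

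Kif6, a motor of ependymal cilia in mice, had 5.72, 4.95 and 7.43 CPM in Stra8-deficient and 32.6, 38.3 and 33.2 CPM in wild-type testes (-2.51 ± 0.24; adjusted p = 1.32e-05). Kif7, which organises the tip of the primary cilium for hedgehog signalling, had 9.94, 2.86 and 5.22 CPM against 34.0, 30.6 and 33.9 CPM in wild type (-2.46 ± 0.40; adjusted p = 4.21e-04). Kif7 varied widely among the Stra8-deficient testes, with the first highest, and 20.3% of its exon bases are shared with genes on the opposite strand. Kif24, a depolymerase that holds back cilium formation, fell to 28.0 ± 1.86 CPM in Stra8-deficient against 89.7 ± 4.62 CPM in wild-type testes (SD, n = 3 each; -1.68 ± 0.16). Kif19a, which limits the length of motile cilia in mice by depolymerising microtubule tips, had 84.9, 36.1 and 42.1 CPM against 36.8, 33.3 and 38.2 CPM in wild type. Its Stra8-deficient mean rested on the first testis, the second lay among the wild-type values and the third just above them, and it was not called (0.59 ± 0.31; adjusted p = 0.115). Without that testis the log2 fold change was 0.08.

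Kif3a and Kif3b form the heterodimer that, with the accessory subunit Kifap3, carries cargo into cilia and flagella. Kif3b had 50.4, 78.2 and 66.7 CPM in Stra8-deficient and 510, 528 and 580 CPM in wild-type testes (-3.05 ± 0.21; adjusted p = 1.74e-06). Kif3a had 158, 224 and 197 CPM against 138, 156 and 166 CPM in wild type, which overlap, and was not called (0.33 ± 0.18; adjusted p = 0.128). With library size alone it was called higher at 0.95, as it was with upper-quartile factors at 0.61 and without the first Stra8-deficient library at 0.43. Kifap3 fell with Kif3b, to 31.0 ± 6.14 CPM in Stra8-deficient against 412 ± 24.3 CPM in wild-type testes (-3.73 ± 0.21; adjusted p = 3.90e-07). Reads of Kif3a per read of Kif3b numbered 3.14, 2.87 and 2.95 in Stra8-deficient and 0.270, 0.295 and 0.286 in wild-type libraries. Kif3a held 74.9 ± 0.848% of the reads of this pair in Stra8-deficient and 22.1 ± 0.775% in wild-type libraries (SD, n = 3 each; exact permutation p = 0.1, the smallest possible). The third member, Kif3c, a motor best known from neurons and grouped with transport, rose to 18.3 ± 4.75 against 5.69 ± 1.07 CPM (1.69 ± 0.30; adjusted p = 6.66e-04), but 40.7% of its exon bases are shared with genes on the opposite strand.

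**Figure D3:**
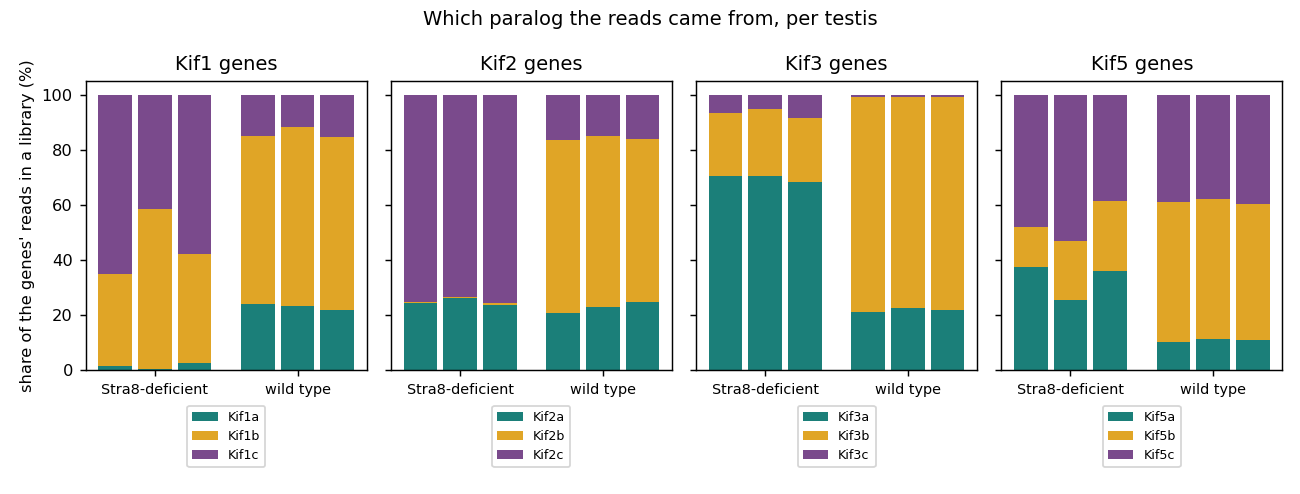
Share of reads, in percent, that each paralog took among the Kif1, Kif2, Kif3 and Kif5 genes in each library, with 3 Stra8-deficient libraries left of 3 wild-type libraries. Kif2b takes 61.4% of the Kif2 reads on average in wild-type libraries and 0.474% in Stra8-deficient ones, and Kif3a and Kif3b trade places.

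The ciliary partners fell with the ciliary kinesins. Of 14 listed genes read in all files 10 were lower, 1 higher and 3 not called, with a median of -2.33, beside 36.7% of all genes lower and 39.0% higher. Spef2, a sperm tail protein of the central pair, had 0.341 ± 0.0581 CPM in Stra8-deficient and 49.8 ± 6.48 CPM in wild-type testes (-7.14 ± 0.29). Its Stra8-deficient level rested on 4, 3 and 5 reads, so the size of its fall is uncertain. Stk36, a kinase needed for motile cilia, fell by 4.55 ± 0.24, and Gli3, a hedgehog transcription factor processed at the cilium, rose by 2.35 ± 0.24 (adjusted p = 2.26e-05). The 4 markers of multiciliated cells, genes that sperm also use to build a tail, held 52.6 to 75.5 CPM in Stra8-deficient and 1855 to 2388 CPM in wild-type testes, and all 4 were lower. Spermatid markers moved the same way, and their part in the fall of ciliary kinesins was not tested.

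Promoter windows of Kif9 (chr9:110476708-110477007, plus strand) and Kif17 (chr4:138262001-138262300, plus strand), the ciliary members with the largest falls, are shown to set their letters beside those of Kif4 and Kif11. Neither holds a CHR or a CCAAT box. Capitals mark GTTGCC on either strand, a part of the X-box bound by RFX factors, and TGACGTCA, the cAMP response element bound by CREM, both chosen after the sequences were read. GTTGCC stood in 4 of 8 ciliary, 3 of 12 mitotic and 3 of 8 transport members, beside 14.1% of all genes, and TGACGTCA in 1 of 8 ciliary (Kif17), 1 of 12 mitotic (Kif18a) and 1 of 8 transport members (Kif5c), beside 2.03% of all genes. Kif18a and Kif5c rose. The ciliary counts include Kif9 and Kif17, whose windows were read before the motifs were chosen. They therefore do not measure an excess over all genes.
Kif9: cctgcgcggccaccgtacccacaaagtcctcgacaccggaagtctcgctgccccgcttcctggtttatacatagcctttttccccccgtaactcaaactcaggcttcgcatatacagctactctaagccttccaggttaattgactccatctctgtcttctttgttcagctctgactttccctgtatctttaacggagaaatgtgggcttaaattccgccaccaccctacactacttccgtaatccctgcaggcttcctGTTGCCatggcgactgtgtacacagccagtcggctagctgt
Kif17: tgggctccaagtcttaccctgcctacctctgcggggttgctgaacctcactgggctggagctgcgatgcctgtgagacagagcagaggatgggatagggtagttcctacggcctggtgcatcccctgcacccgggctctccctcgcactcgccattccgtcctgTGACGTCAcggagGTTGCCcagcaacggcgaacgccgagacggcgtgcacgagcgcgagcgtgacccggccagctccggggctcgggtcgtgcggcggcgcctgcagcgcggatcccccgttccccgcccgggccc

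Transport kinesins went both ways, and the Kif5 genes, the heavy chains of conventional kinesin, rose or were not called. Kif5a, best known from neurons, had 116, 91.0 and 94.8 CPM in Stra8-deficient and 11.1, 12.8 and 13.6 CPM in wild-type testes (3.01 ± 0.20; adjusted p = 1.14e-06). Its lowest Stra8-deficient value was far above its highest wild-type value. Kif5c rose to 146 ± 43.8 CPM in Stra8-deficient against 44.4 ± 3.13 CPM in wild-type testes (1.71 ± 0.24; adjusted p = 1.47e-04). Kif5b, the ubiquitous form, had 44.2, 75.3 and 67.2 CPM against 55.9, 57.3 and 60.2 CPM in wild type, with the first Stra8-deficient testis below and the other 2 above the wild-type ones (0.11 ± 0.22; adjusted p = 0.668). With library size alone Kif5b was called higher (0.72; adjusted p = 0.0117). Of the reads of the 3 genes, Kif5b took 20.4 ± 5.61% in Stra8-deficient and 50.4 ± 0.875% in wild-type libraries, and Kif5a 33.1 ± 6.53% against 10.9 ± 0.677% (SD, n = 3 each). Neuronal markers in the same libraries were low in both genotypes, as given above.

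The Kif1 genes carry vesicles and organelles over long distances. Kif1a, the motor of synaptic vesicle precursors, had 3.81, 0.953 and 4.76 CPM in Stra8-deficient and 62.6, 58.5 and 56.7 CPM in wild-type testes (-4.19 ± 0.46; adjusted p = 3.20e-05). It varied most of all members between Stra8-deficient testes, with a coefficient of variation of 62.4%, and the genotypes still did not overlap. Kif1b, which also moves mitochondria, had 91.2 ± 23.6 against 161 ± 2.43 CPM (-0.82 ± 0.20; adjusted p = 0.00490), while Kif1c, a motor of Golgi-derived vesicles, had 117 ± 36.1 against 35.7 ± 5.74 CPM (1.71 ± 0.25; adjusted p = 2.28e-04). Within the 3 genes, Kif1c took 54.8 ± 12.1% of the reads in Stra8-deficient and 13.9 ± 2.04% in wild-type libraries, and Kif1a 1.52 ± 1.02% against 23.1 ± 1.01% (SD, n = 3 each).

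Kif21a and Kif21b, which pause microtubule growth, both fell. Kif21b had 11.3, 9.81 and 11.5 CPM in Stra8-deficient and 166, 144 and 167 CPM in wild-type testes (-3.87 ± 0.18; adjusted p = 1.47e-07). Kif21a had 9.64, 11.7 and 9.98 CPM against 59.2, 58.7 and 65.7 CPM in wild type (-2.55 ± 0.19; adjusted p = 2.89e-06). Both sets of Stra8-deficient testes lay below the wild-type ones. The endosome motors Kif13a (-0.70 ± 0.25; adjusted p = 0.0271), Kif13b (-0.62 ± 0.17; adjusted p = 0.00946) and Kif16b (-0.64 ± 0.20; adjusted p = 0.0178) fell by less. None of these 3 was called with library size alone (-0.08 to -0.005) or with upper-quartile factors (-0.42 to -0.35). Their calls also depended on single wild-type libraries. Kif13a was not called without any 1 of them (-0.76 to -0.66), Kif13b without the first (-0.56), and Kif16b without the second (-0.61) or the third (-0.62). Kif1b (-0.21) and Kif15 (-0.36) also lost their calls with library size alone. The authors' deposited table gives corrected p-values of 0.0667 for Kif13b and 0.0702 for Kif16b.

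Of 15 listed partners of the transport motors 5 were higher, 6 lower and 4 not called, with a median of -0.58, beside 39.0% of all genes higher and 36.7% lower. Mapk8ip2, a scaffold that links kinesin light chains to cargo, had 0.445 ± 0.203 CPM in Stra8-deficient and 201 ± 3.97 CPM in wild-type testes (-8.83 ± 0.29). Its Stra8-deficient level rested on 4, 7 and 4 reads, so the size of its fall is uncertain. After Mapk8ip2, the next largest fall in the list was that of Kifap3, and Trak2, which tethers mitochondria to Kif5 motors, rose by 1.44 ± 0.23 (adjusted p = 3.70e-04).

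The largest rise in the family was that of an atypical member without known motor activity. Kif26a, which in mice restrains GDNF signalling through Ret in enteric neurons, had 263, 257 and 139 CPM in Stra8-deficient and 8.59, 11.9 and 7.70 CPM in wild-type testes (4.54 ± 0.32; adjusted p = 1.76e-06). The third Stra8-deficient testis was the lowest of its genotype and still stood far above wild type. Kif26b, a relative needed for kidney development in mice, had 33.4, 19.5 and 15.8 CPM against 4.37, 5.79 and 3.12 CPM in wild type (2.36 ± 0.37; adjusted p = 3.46e-04). Those ranges do not overlap either.

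Summed over members, kinesins held 2499, 2759 and 2325 CPM in Stra8-deficient and 5446, 5701 and 5638 CPM in wild-type testes. The ciliary class accounted for much of the gap, with 412 ± 19.2 CPM in Stra8-deficient and 2596 ± 108 CPM in wild-type testes (SD, n = 3 each). The mitotic class held 1212 ± 112 against 2229 ± 60.3 CPM although 8 of its members rose. Kif2b held 0.728 ± 0.265 CPM of it in Stra8-deficient and 984 ± 67.3 CPM in wild-type testes, and Kif2a 38.4 ± 3.57 against 365 ± 27.0 CPM. Without Kif2a and Kif2b its sum was 1173 ± 109 CPM in Stra8-deficient and 881 ± 25.1 CPM in wild-type testes. The transport class held 661 ± 65.9 against 755 ± 22.3 CPM, and its share of kinesin reads was 25.2% to 27.3% in Stra8-deficient libraries against 12.9% to 13.9% in wild-type ones. Shares of mitotic reads were 44.7% (95% Wilson interval 44.1% to 45.3%), 48.4% and 50.9% in Stra8-deficient and 40.5%, 40.3% and 38.8% in wild-type libraries.

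**Figure D4:**
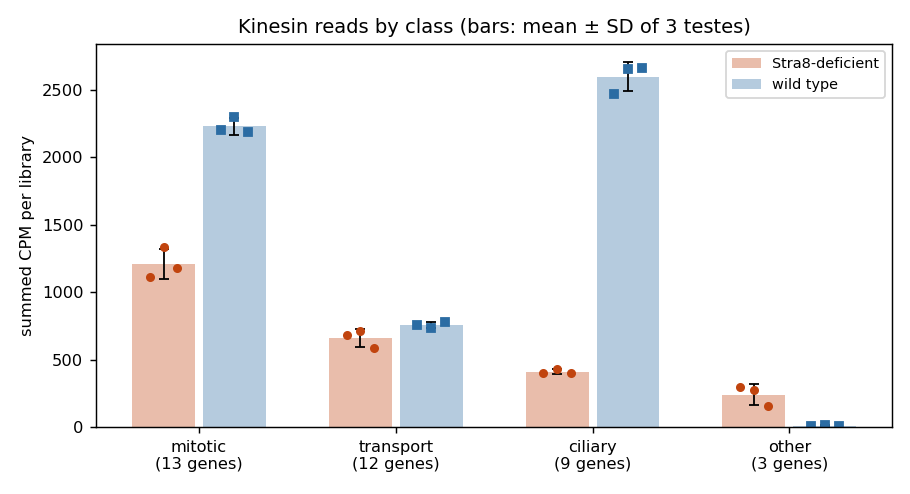
Summed CPM of the kinesins of each class per library, with points for the 3 testes of a genotype and bars for the mean ± SD, Stra8-deficient left of wild type. The ciliary sum is 412 CPM in Stra8-deficient and 2596 CPM in wild-type testes, and the sum of the other class is 243 against 13.8 CPM.

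Kinesin levels varied more between the Stra8-deficient than between the wild-type testes. Across the 36 tested members the median coefficient of variation was 20.9% among Stra8-deficient testes against 6.90% among wild-type testes, beside 28.3% and 9.72% for all genes tested. Kif2c varied least among the Stra8-deficient testes, at 2.26%, and Kif26b most among the wild-type testes, at 30.2%.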

How the data were processed

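Whole-testis polyadenylated RNA was sequenced from 3 Stra8-deficient and 3 wild-type mice. The submitters' processing notes name TopHat, HTSeq, edgeR and the mm9 build, without roles or versions, and strand handling is not stated there. The authors deposited whole-number read counts per gene symbol for each library. The third Stra8-deficient file used another gene list, with 1499 symbols of its own and 269 found only in the other 5, so the 21786 shared symbols were used. HTSeq's own counters, 20.9% to 34.5% of reads, were left out. The authors' deposited table also holds log2 ratios and corrected p-values, used for comparison only; for the 36 shared members its log2 ratio lay within 0.0321 of the one fitted here.

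Counts were fitted with edgeR 4.0.16 in R 4.3.3 (robust quasi-likelihood test, TMM, filterByExpr, Benjamini-Hochberg adjustment over 15018 genes), with all 6 libraries and no covariate. Nothing in the labels says more on how replicates were taken than separate samples, so p-values measure the spread between these samples. The biological coefficient of variation was 27.4%, or 38.1% among Stra8-deficient and 7.36% among wild-type testes. Intervals of shares are 95% Wilson intervals and cover counting error only; 3 reads, the floor for 0 reads, were 0.243 to 0.447 CPM. The code was tested on simulated data of 14806 genes, with 100 changed at each size, far fewer than were called in the real data. Of those changed by a log2 fold of 1, 21% were called in the right direction, and of those changed by 2, 80%. Of unchanged genes 0.048% were called. The simulation gave both genotypes the same spread, unlike the real testes. These percentages therefore test the code and do not measure recovery in the real data. A gene not called may still have changed. Exon lengths and overlaps came from GENCODE M21 and promoters from RefSeq, neither on the files' build. Every symbol of the family may be named. Values per library are given for members called at a log2 change of at least 2 and for those not called. Kif11 and Kif22, called below that size, are also given per library, outside this rule. Of each partner list, the 2 called genes with the largest change and 1 in the other direction are named. Cit is named as well, since it is given with Kif14. Members and lists were chosen with earlier results of these data known. Alternatives were RLE, upper-quartile and plain library sizes, no low-count filter, DESeq2 1.42.0, a replicate block, each library left out, the mitotic class without Kif2a and Kif2b, and, chosen after seeing the data, Kif4 with its retrocopy's reads.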

Additional observations from a re-analysis of the deposited data

How the results depend on the processing

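Direction and call were the same in all 13 alternatives for 25 of the 36 tested kinesins. With library size alone, 3 transport kinesins were called lower and 2 ciliary kinesins higher, and with upper-quartile factors 4 and 2, against 7 and 0. The ciliary kinesins called higher there were Kif3a and Kif19a. Those scalings moved the median of all genes to 0.73 and 0.38, and 63.6% of all calls were higher with library size alone, against 51.5%. Kif18b turned to 0.11 with library size alone. Kif5b (0.11) turned to -0.012 with RLE factors and with DESeq2, and ranged from -0.096 to 0.27 with a library left out, lowest without the second Stra8-deficient one; none of these values was called. Without Kif2a and Kif2b, 2 mitotic kinesins were called lower, against 4. With the retrocopy's reads added to Kif4, 7 mitotic kinesins and 13 of the family were called higher, against 8 and 14.

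With each library left out in turn, 13 to 15 kinesins were called higher and 16 to 19 lower. By class these counts were 7 to 8 higher and 4 to 5 lower for mitotic, 4 to 4 higher and 5 to 7 lower for transport, and 0 to 1 higher and 7 to 7 lower for ciliary members. The 1 ciliary call was Kif3a without the first and Kif19a without the second Stra8-deficient library. Replicate numbers do not pair the samples: deviations of same-numbered libraries correlated at 0.058, 0.080 and -0.040. With a replicate block 14 kinesins were called higher and 17 lower, and Kif13a lost its call (-0.71; adjusted p = 0.0614, edgeR). The cause of these changes was not tested. Depth limits Kif2b in Stra8-deficient libraries, where it had 27 reads in all, and Kif12. Among the partners it limits Spef2 and Mapk8ip2, with 12 and 15 reads in all in Stra8-deficient libraries.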
